A study of Mus musculus with 36 samples.

Results

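The 9 genes described here encode receptors and bridging molecules of efferocytosis, the uptake of dying cells by macrophages. They are the rows of the count table whose gene symbol is Axl, Mertk, Mfge8, Gas6, Tgm2, Cd36, Scarf1, Stab1 or Lrp1, and all 9 were found among its 12795 genes. They were chosen by name and not by their values, although earlier results of these data were known. In 135 tests, 9 genes in 15 comparisons, 12 passed the threshold. Over all genes, the share called in a comparison ran from 0.0% to 3.26%. Those 12 fell on Mfge8, Cd36, Axl, Scarf1 and Tgm2, while Mertk, Gas6, Stab1 and Lrp1 had none. These calls come from a fit without the replicate number of the labels. With that number as a block, Lrp1 was also called lower in CCR2-positive macrophages labelled mac-TFEB, CX3CR1-Cre and TFEB-wt Cre-neg. In each of these comparisons the block also raised the calls over all genes. Without the block, Mfge8 and Cd36 were lower in CCR2-positive macrophages, each passing in 3 of the 4 groups in which the fractions were compared. Scarf1 was higher there and passed in CX3CR1-Cre and TFEB-TG Cre-neg. Axl was higher and passed in TFEB-TG Cre-neg only, and in CX3CR1-Cre it was about level between the fractions. Tgm2 had its lowest levels in the group labelled CX3CR1-Cre.

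A dying cell exposes phosphatidylserine on its surface, and macrophages read it either directly or through a soluble protein that bridges it to a receptor. Gas6 bridges it to the receptor tyrosine kinases Axl and Mertk, and Mfge8 bridges it to αv integrins, with which the transglutaminase Tgm2 cooperates. Cd36, Scarf1 and Stab1 are scavenger receptors that take part in the recognition of dying cells, and Lrp1 is an endocytic receptor that responds to calreticulin. In the infarcted heart, macrophages clear dead cardiomyocytes and neutrophils by this route, and Mertk and Mfge8 are known for their part in it.

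The libraries came from macrophages sorted by flow cytometry out of post-ischemic mouse hearts on the chemokine receptor CCR2, into a positive (CCR2pos) and a negative (CCR2neg) fraction. TFEB-TG animals carry a TFEB expression cassette behind a floxed stop sequence, and TFEB-wt animals lack it. TFEB is a transcription factor of lysosomal and autophagy genes. Mice were fed tamoxifen for 7 days, then had 90 min of ischemia, and macrophages were sorted 7 days after that. In each line the libraries fall into 2 labels, mac-TFEB (4 per fraction) and Cre-neg (4 per fraction) in TFEB-TG, and CX3CR1-Cre (5 per fraction) and Cre-neg (5 per fraction) in TFEB-wt. In the labels all animals, the control line included, carry Cx3cr1-er-Cre, a tamoxifen-dependent Cre under Cx3cr1, and the reporter Td-Tomato-LoxSTOP, and the transgenic line adds TFEB-LoxP-STOP. What set Cre-neg cells apart is therefore not given in the sources used here, nor are strain, sex or age. Nor do the labels say that libraries of a group are separate animals, so a p-value here reflects the scatter among libraries, part of which may be technical.

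Levels are given as CPM, counts scaled to a common library total, and differences are log2 fold changes ± standard error from edgeR's quasi-likelihood test. A gene is called at a Benjamini-Hochberg adjusted p under 0.05 over all 12795 genes. Library totals ran from 13797484 to 32645783 counts with a median of 19676039. All 9 macrophage markers on a list (Cd68, Adgre1, Csf1r, Fcgr1, Mertk, Cd14, Lyz2, C1qa and Itgam) were present in every library, with summed levels of 27365 to 42418 CPM, and Mertk is itself one of the 9 genes described here. Tfeb was counted at 67.4 to 335 CPM in CCR2neg mac-TFEB and at 6.66 to 8.86 CPM in CCR2neg CX3CR1-Cre. Mean Ccr2 ran from 651 to 868 CPM in the 4 CCR2pos groups and from 47.2 to 73.7 CPM in the 4 CCR2neg groups. The first library of CCR2neg TFEB-TG Cre-neg stood apart, with 3547 CPM of 6 monocyte markers against 156 to 264 CPM in the other 3. Of these 3547 CPM, Chil3 alone made 3452, so the sum does not describe the monocyte markers as a set. The same library had 462 CPM of 6 cardiomyocyte markers against 20.4 to 38.9 CPM. Library 3 of CCR2neg CX3CR1-Cre and library 3 of CCR2neg TFEB-wt Cre-neg also fitted their groups less well, with quality weights of 0.290 and 0.373 (limma).

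Positions are GRCm38. Axl (ENSMUSG00000002602, chr7:25757273-25788705, minus strand) and Mertk (ENSMUSG00000014361, chr2:128698956-128802894, plus strand) are the receptor kinases, and Gas6 (ENSMUSG00000031451, chr8:13465374-13494490, minus strand) is their ligand. The other bridge is Mfge8 (ENSMUSG00000030605, chr7:79133768-79149060, minus strand), with Tgm2 (ENSMUSG00000037820, chr2:158116402-158146436, minus strand) beside it. The scavenger receptors are Cd36 (ENSMUSG00000002944, chr5:17781690-17888801, minus strand), Scarf1 (ENSMUSG00000038188, chr11:75513540-75526582, plus strand) and Stab1 (ENSMUSG00000042286, chr14:31139013-31168641, minus strand). Lrp1 (ENSMUSG00000040249, chr10:127538161-127621148, minus strand) has the longest exon sequence, 17717 bases, against 2548 for Gas6. Reads were counted without strand, and 3 of the genes share exon bases with a gene on the other strand. Gas6 shares 34 bases with Tmem255b, Tgm2 shares 370 bases with Rprd1b and 633 bases with Gm20412, which is not among the genes analysed here, and Stab1 shares 112 bases with Nt5dc2, and such reads cannot be told apart. Rprd1b had a median of 22.2 CPM and Nt5dc2 of 5.92 CPM over the 36 libraries.

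Promoters of 7 of the 9 genes were matched in RefSeq (GRCm38.p6), as the 250 bases before and 50 after the start. None of the 7 holds CACGTG, the core letters that TFEB binds, on either strand, and 7.15% of 32851 mouse promoters of this length do. Among 9766 genes of the count table with a promoter the share was 11.8%, so absence from 7 promoters says little. GAGGAA, the core letters bound by ETS factors such as PU.1, is on one of the strands of Axl, Mfge8 and Stab1. It is in 28.3% of all promoters and in those of 31.4% of the 9766 genes. The promoters of 3 members that passed the test in more than 1 comparison are printed 5′ to 3′, with GAGGAA or its reverse complement TTCCTC in capitals. They lie on the minus strand at chr7:25788684-25788983 (Axl), chr7:79149011-79149310 (Mfge8) and chr5:17835847-17836146 (Cd36), the last inside the gene's GENCODE span because RefSeq starts it further in.
Axl: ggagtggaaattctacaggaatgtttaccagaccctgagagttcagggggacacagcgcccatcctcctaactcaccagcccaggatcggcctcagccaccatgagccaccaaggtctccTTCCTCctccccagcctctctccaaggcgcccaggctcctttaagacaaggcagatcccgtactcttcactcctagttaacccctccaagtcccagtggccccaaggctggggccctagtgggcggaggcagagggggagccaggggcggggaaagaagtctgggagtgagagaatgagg
Mfge8: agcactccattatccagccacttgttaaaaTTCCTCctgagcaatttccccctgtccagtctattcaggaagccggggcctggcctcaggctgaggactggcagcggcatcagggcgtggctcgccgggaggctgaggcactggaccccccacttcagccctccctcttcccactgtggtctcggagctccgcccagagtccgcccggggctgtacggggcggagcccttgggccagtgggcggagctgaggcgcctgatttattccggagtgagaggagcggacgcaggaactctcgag
Cd36: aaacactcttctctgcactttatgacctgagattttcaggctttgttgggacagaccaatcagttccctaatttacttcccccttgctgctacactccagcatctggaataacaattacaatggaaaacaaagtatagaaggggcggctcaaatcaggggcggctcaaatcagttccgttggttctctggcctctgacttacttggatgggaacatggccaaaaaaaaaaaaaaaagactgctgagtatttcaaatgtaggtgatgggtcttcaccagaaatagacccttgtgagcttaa
A match describes the letters of these windows and is not a site. Cd36 has no capitals because these letters are not in its window, in which 43.0% of bases are G or C, against 60.3% for Axl and 64.3% for Mfge8.

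Per kilobase of exon (FPKM), Cd36 was the most abundant of the 9 genes, with a median of 149.8 over the 36 libraries and a range of 68.2 to 313. Stab1 followed at a median of 70.0 FPKM, then Tgm2 at 43.4, Mertk at 40.2, Axl at 34.5, Gas6 at 30.8, Mfge8 at 24.6 and Lrp1 at 13.2. Scarf1 was the least abundant at 4.56 FPKM, and its counts ran from 66 to 594 per library, so it is the member with the coarsest counts. All 9 lay above the median of the table, from the 59.9th percentile for Scarf1 to the 97.7th for Cd36 among 12788 genes with a length.

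**Figure D1:**
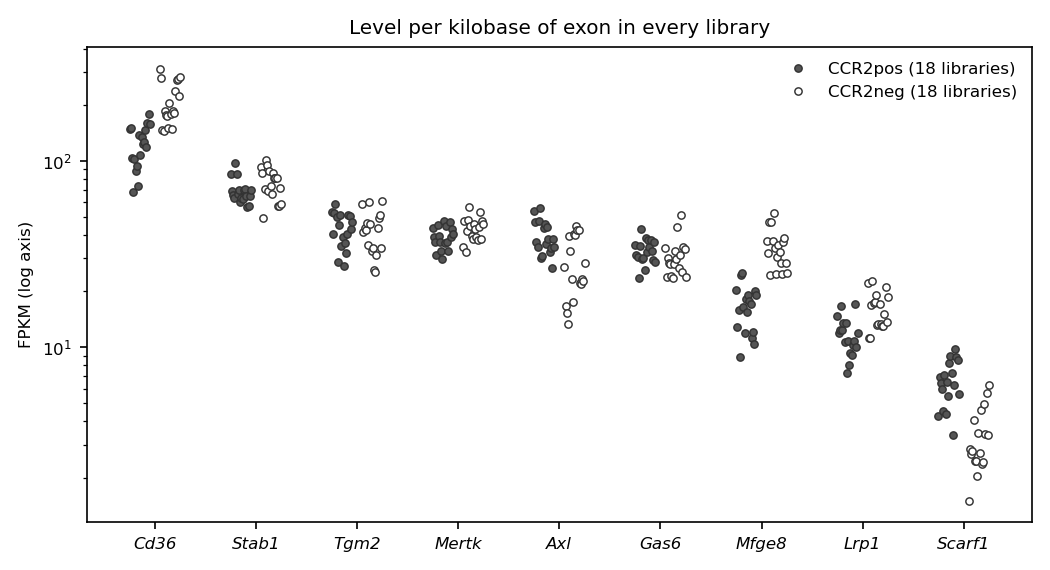
Level per kilobase of exon (FPKM, log axis) of the 9 genes in every library, with genes ordered by median from left to right; filled points are the 18 CCR2pos libraries and open points the 18 CCR2neg libraries. Cd36 has the highest median (149.8 FPKM) and Scarf1 the lowest (4.56 FPKM), and the open points lie higher for Cd36 and Mfge8 and lower for Scarf1.

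The genes differed in how far their level moved between the 8 groups. In CPM, the highest group mean was 3.19 times the lowest for Scarf1, 2.94 times for Mfge8, 2.89 times for Cd36, 2.38 times for Axl and 2.14 times for Lrp1. It was 1.71 times for Tgm2, 1.41 times for Stab1, 1.33 times for Gas6 and 1.26 times for Mertk. Mfge8, Cd36 and Lrp1 had the 4 CCR2neg groups on top and Scarf1 had the 4 CCR2pos groups on top. For Lrp1 the lowest CCR2neg mean (248 CPM) and the highest CCR2pos mean (246 CPM) were close. In the order of the 8 group means, the ranges of neighbouring groups overlapped for each of the 9 genes, so that no step between neighbours separated their libraries. The only steps wider than the larger SD of the neighbours were in Mfge8, Cd36, Scarf1 and Lrp1. For Mfge8 that step lay between CCR2pos mac-TFEB (91.2 ± 29.8 CPM, SD, n = 4), the highest CCR2pos group, and CCR2neg CX3CR1-Cre (142 ± 19.0 CPM, n = 5), the lowest CCR2neg group.

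**Figure D2:**
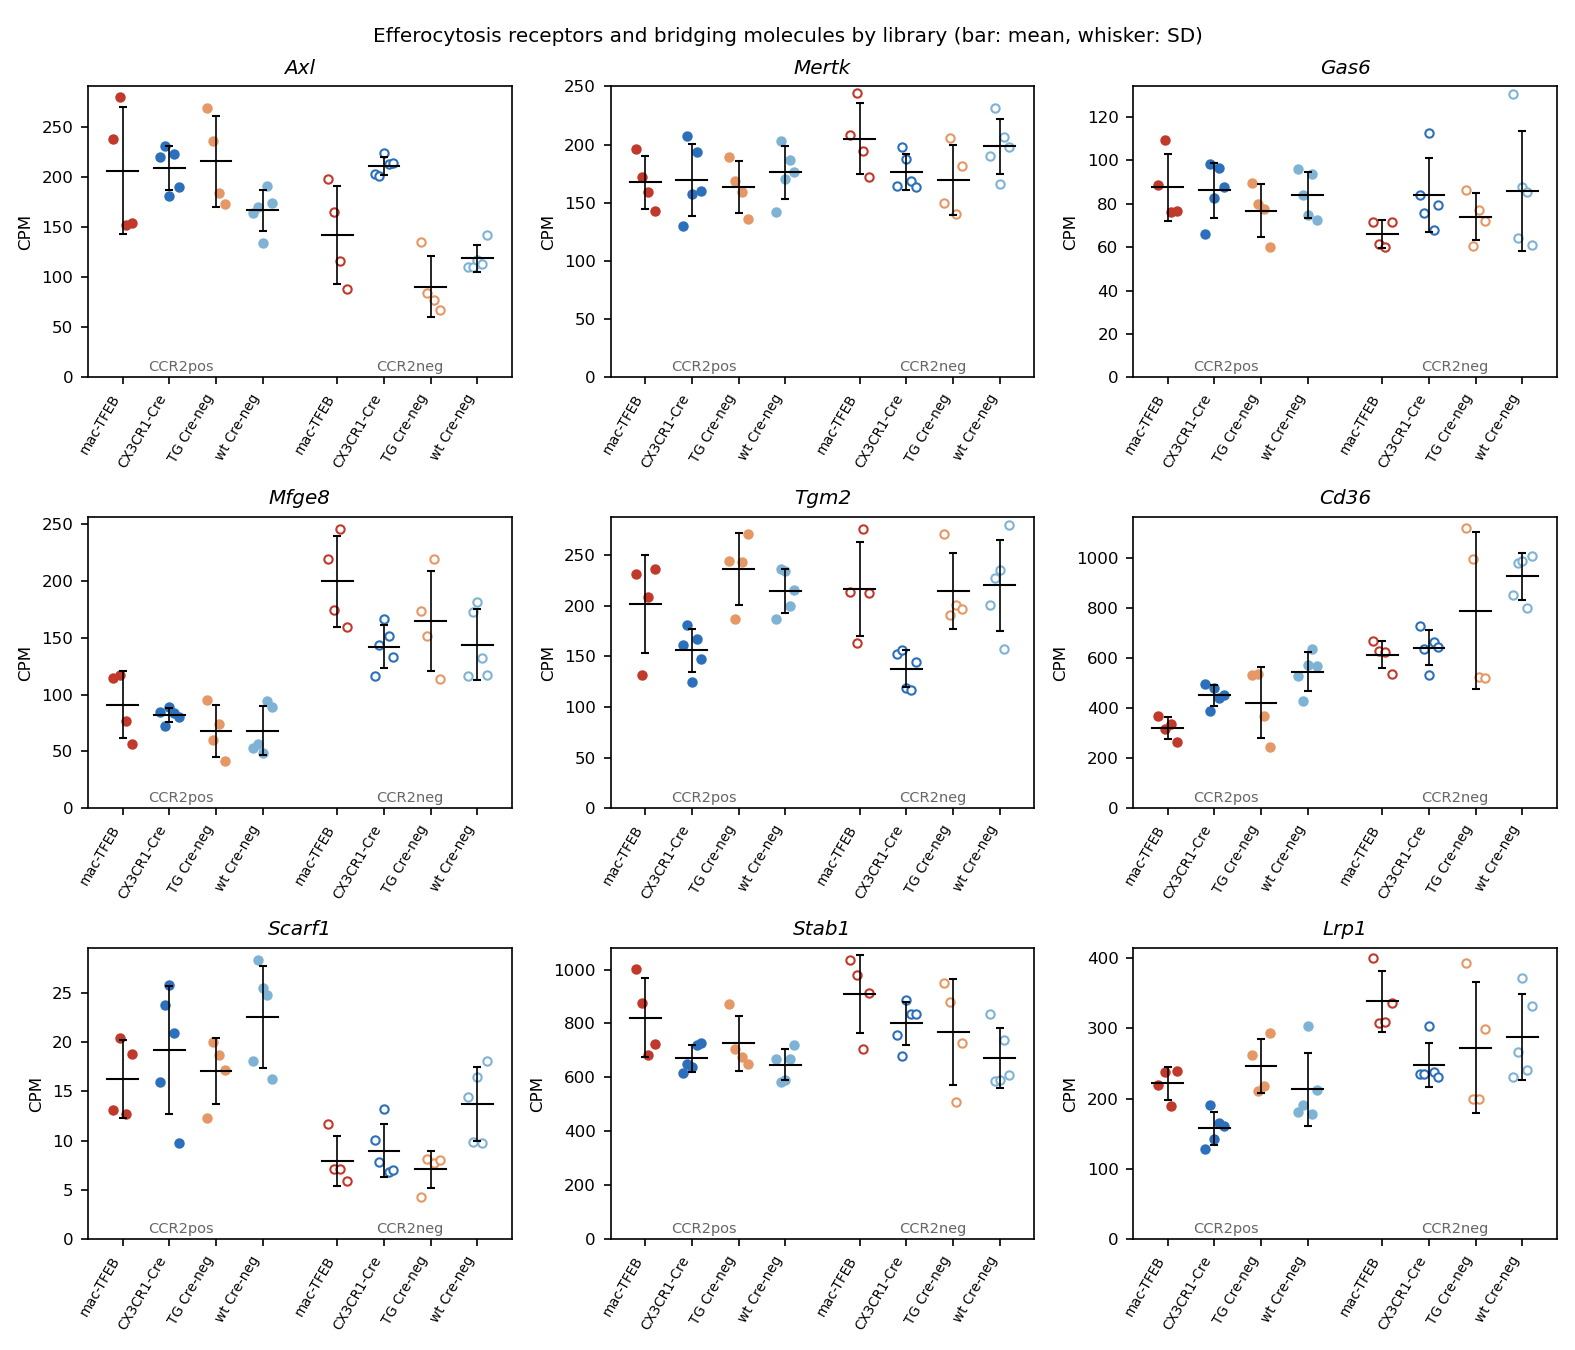
CPM of the 9 genes in each of the 36 libraries, by group; points are libraries, the horizontal bar is the group mean and the whisker the SD, filled points are CCR2pos (left) and open points CCR2neg (right). Mfge8 and Cd36 are lower on the left, Scarf1 is higher on the left, and Axl in CCR2neg CX3CR1-Cre lies at 202 to 224 CPM, level with the CCR2pos groups.

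The comparison of fractions asks how CCR2pos macrophages, which largely descend from recruited monocytes, differ from CCR2neg macrophages in these genes. In mac-TFEB 2 of 9 members passed, both lower (0.539% of all genes called), and in CX3CR1-Cre 1 of 9, higher (0.797%). In TFEB-TG Cre-neg 4 of 9 passed, 2 higher and 2 lower (3.26%), and in TFEB-wt Cre-neg 2 of 9, both lower (2.35%). The median log2 fold change of the 9 members lay between -0.15 and -0.05 in the 4 comparisons, beside -0.03 to -0.01 over all genes. Libraries with the same number within a genotype deviated together, and a fit with the number as a block raised the counts to 5 in mac-TFEB, 4 in CX3CR1-Cre and 4 in TFEB-wt Cre-neg and left 4 in TFEB-TG Cre-neg. Over all genes the block raised the calls from 69 to 481 in mac-TFEB and from 102 to 552 in CX3CR1-Cre. In TFEB-TG Cre-neg they rose from 417 to 1228, and in TFEB-wt Cre-neg from 301 to 808. In fits to the compared libraries alone, member counts were 1 in mac-TFEB, 3 in CX3CR1-Cre, 0 in TFEB-TG Cre-neg and 3 in TFEB-wt Cre-neg. Over all genes those fits called 32 in mac-TFEB, 68 in TFEB-TG Cre-neg and 199 in TFEB-wt Cre-neg. The 4 calls in TFEB-TG Cre-neg were kept in all 8 leave-outs, the first CCR2neg library among them. Some markers of other cells differed between the fractions. The 6 measured monocyte markers summed to 432 to 905 CPM in CCR2pos and 71.9 to 256 CPM in CCR2neg mac-TFEB. Ccr2, the gene of the sort, is 1 of the 6 and alone had 302 to 865 CPM and 36.6 to 70.7 CPM, so these sums largely restate the sort. In mac-TFEB and in CX3CR1-Cre 1 of the 6 was called higher, and in TFEB-TG Cre-neg and in TFEB-wt Cre-neg 3 were called higher. The 7 dendritic cell markers summed to 119 to 213 CPM in CCR2pos and 57.3 to 82.3 CPM in CCR2neg mac-TFEB, with 0 called. In CX3CR1-Cre they summed to 127 to 204 CPM in CCR2pos and 46.5 to 84.1 CPM in CCR2neg, with 2 called higher. In TFEB-wt Cre-neg 0 of them were called. None of either list was at 0 throughout a group. In TFEB-TG Cre-neg the dendritic sums overlapped, at 56.7 to 154 CPM in CCR2pos and 46.5 to 109 CPM in CCR2neg, with 1 called higher. There 3 of 6 cardiomyocyte markers were called lower, with sums of 25.3 to 37.9 CPM in CCR2pos and 20.4 to 462 CPM in CCR2neg, the highest being library 1. Of 8 resident macrophage markers 2 were called lower in TFEB-wt Cre-neg, with sums of 4815 to 7890 CPM in CCR2pos and 4522 to 9227 CPM in CCR2neg. The medians of 7 endothelial and 5 mural markers were -1.16 and -1.34 in mac-TFEB and -1.002 and -1.41 in CX3CR1-Cre on the log2 scale. They were -0.39 and -0.43 in TFEB-TG Cre-neg, and in TFEB-wt Cre-neg they went the other way, at 0.62 and 0.37. None of these markers was called in any of the 4 comparisons. The part of all these marker lists in the results was not tested. In bulk samples fewer cells of a type and less RNA per cell cannot be told apart.

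**Figure D3:**
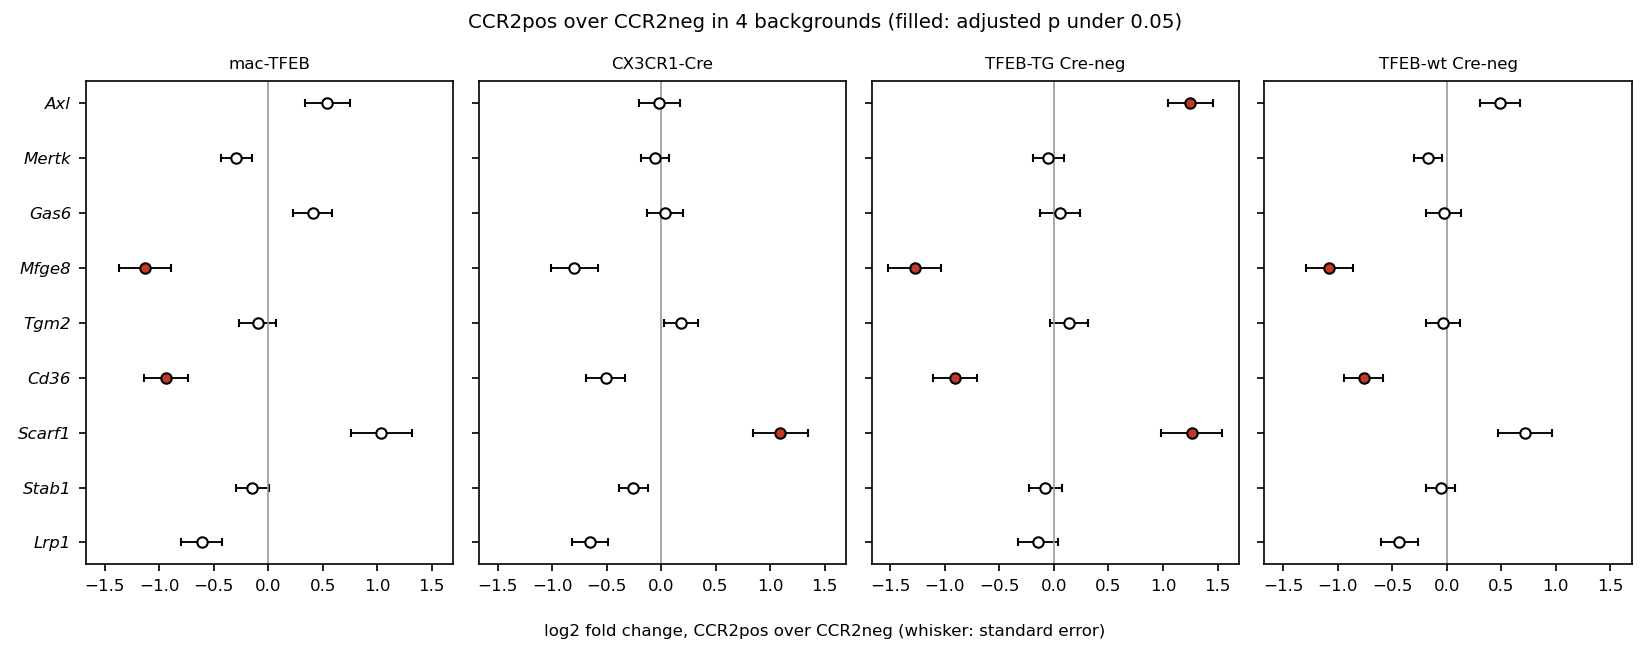
Log2 fold change (CCR2pos over CCR2neg) of the 9 genes in mac-TFEB, CX3CR1-Cre, TFEB-TG Cre-neg and TFEB-wt Cre-neg; points are estimates, whiskers are standard errors and filled points have an adjusted p under 0.05. Mfge8, Cd36, Lrp1, Mertk and Stab1 lie left of 0 in all 4 panels and Scarf1 right of 0. Axl runs from -0.01 in CX3CR1-Cre to 1.25 in TFEB-TG Cre-neg.

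Mfge8, the secreted bridge to integrins, was the member with the largest decrease in CCR2pos cells in each of the 4 comparisons. It was counted at 115, 117, 76.8 and 56.1 CPM in CCR2pos mac-TFEB, against 219, 174, 246 and 159 CPM in CCR2neg mac-TFEB. In TFEB-wt Cre-neg it was counted at 52.9, 56.9, 48.6, 94.0 and 89.1 CPM in CCR2pos, against 116, 173, 182, 132 and 117 CPM in CCR2neg. Every CCR2pos library was below every CCR2neg library in both. It fell by 1.13 ± 0.24 on the log2 scale in mac-TFEB (adjusted p = 0.0155), by 1.28 ± 0.24 in TFEB-TG Cre-neg (adjusted p = 0.00156) and by 1.08 ± 0.22 in TFEB-wt Cre-neg (adjusted p = 0.00353). In CX3CR1-Cre, at 84.9, 72.4, 89.0, 83.5 and 80.3 CPM in CCR2pos and 117, 143, 167, 152 and 133 CPM in CCR2neg, the groups did not overlap either. Its fold change of -0.80 ± 0.21 there had an adjusted p of 0.0727, and of 0.00397 with the block. The call in mac-TFEB was lost without CCR2neg library 3 (adjusted p = 0.0846) or without CCR2pos library 3 or 4 (0.0611 and 0.107), and kept in the other 5 leave-outs. The call in TFEB-wt Cre-neg was kept in all 10 leave-outs.

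Cd36, a scavenger receptor that also takes up fatty acids and oxidised lipoproteins, moved in the same direction. It was counted at 368, 317, 336 and 263 CPM in CCR2pos mac-TFEB, against 668, 629, 626 and 538 CPM in CCR2neg mac-TFEB. In TFEB-TG Cre-neg the values were 535, 538, 371 and 245 CPM in CCR2pos, against 1122, 997, 526 and 521 CPM in CCR2neg. The mac-TFEB groups did not overlap, and the Cre-neg groups did, because libraries 1 and 2 were high and libraries 3 and 4 low in both fractions. Within each number CCR2pos was the lower one in 4 of 4 pairs. It fell by 0.94 ± 0.20 on the log2 scale in mac-TFEB (adjusted p = 0.0155), by 0.91 ± 0.20 in TFEB-TG Cre-neg (adjusted p = 0.00701) and by 0.76 ± 0.18 in TFEB-wt Cre-neg (adjusted p = 0.0150). The TFEB-wt Cre-neg groups, with means of 547 ± 77.2 CPM (CCR2pos) and 928 ± 93.4 CPM (CCR2neg), did not overlap (SD, n = 5 each). In CX3CR1-Cre the groups also did not overlap, at 452 ± 41.8 CPM in CCR2pos and 643 ± 70.5 CPM in CCR2neg (n = 5 each). There its fold change of -0.51 ± 0.18 had an adjusted p of 0.213, and of 0.0163 with the block. Leaving out CCR2neg library 3 or CCR2pos library 2 or 4 of mac-TFEB moved its adjusted p to 0.0509, 0.0694 and 0.0994, and leaving out CCR2pos library 2 of TFEB-wt Cre-neg moved it to 0.0612.

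Scarf1, a scavenger receptor that binds the complement protein C1q on dying cells, was higher in CCR2pos cells. It was counted at 15.9, 23.7, 25.8, 21.0 and 9.71 CPM in CCR2pos CX3CR1-Cre, against 10.1, 7.86, 13.2, 6.81 and 6.99 CPM in CCR2neg CX3CR1-Cre. All CCR2pos libraries but number 5 lay above all CCR2neg libraries. In TFEB-TG Cre-neg it was counted at 12.3, 20.1, 18.6 and 17.1 CPM in CCR2pos, against 4.33, 8.17, 7.75 and 8.06 CPM in CCR2neg, with no overlap. It rose by 1.09 ± 0.25 on the log2 scale in CX3CR1-Cre (adjusted p = 0.0242) and by 1.26 ± 0.28 in TFEB-TG Cre-neg (adjusted p = 0.00769). In mac-TFEB its fold change was 1.04 ± 0.28 (adjusted p = 0.0878, 0.0275 with the block), and in TFEB-wt Cre-neg 0.72 ± 0.25 (adjusted p = 0.149, 0.0796 with the block). In mac-TFEB it was called without the first CCR2neg library (adjusted p = 0.0350). The CX3CR1-Cre call was kept in 4 of 10 leave-outs. It was lost without CCR2neg library 2, 4 or 5 (adjusted p = 0.0678, 0.0757 and 0.0876) and without CCR2pos library 2, 3 or 4 (0.0771, 0.0987 and 0.0556).

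Axl was the member whose fold change between fractions had the widest range over the 4 comparisons. It was counted at 269.8, 237, 184 and 173 CPM in CCR2pos TFEB-TG Cre-neg, against 135, 84.0, 77.0 and 66.9 CPM in CCR2neg TFEB-TG Cre-neg. The groups did not overlap, and Axl rose by 1.25 ± 0.21 on the log2 scale (adjusted p = 0.000354). In CX3CR1-Cre it was counted at 221, 232, 181, 223 and 191 CPM in CCR2pos, against 204, 202, 224, 213 and 215 CPM in CCR2neg, a fold change of -0.01 ± 0.18 (adjusted p = 0.984). In between lay mac-TFEB at 0.54 ± 0.21 (adjusted p = 0.345) and TFEB-wt Cre-neg at 0.49 ± 0.18 (adjusted p = 0.211). Within numbers, CCR2pos was higher in 4 of 4 mac-TFEB pairs and 5 of 5 TFEB-wt Cre-neg pairs, and with the block their adjusted p were 0.00325 and 0.00267. The fraction difference in mac-TFEB exceeded that in CX3CR1-Cre by 0.55 ± 0.28 on the log2 scale, with an adjusted p of 1.00 in the test of the difference. The differences between the other pairs of groups were not tested.

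Lrp1, the endocytic receptor, had lower values in CCR2pos cells without passing the test. It was counted at 219.9, 238, 189.5 and 239 CPM in CCR2pos mac-TFEB, against 401, 307, 309 and 336 CPM in CCR2neg mac-TFEB, and at 128, 191, 143, 166 and 161 CPM in CCR2pos CX3CR1-Cre, against 234, 235, 303, 237 and 231 CPM in CCR2neg CX3CR1-Cre. Neither pair of groups overlapped. Its fold changes were -0.61 ± 0.19 in mac-TFEB (adjusted p = 0.157, 0.00855 with the block) and -0.65 ± 0.17 in CX3CR1-Cre (adjusted p = 0.0521, 0.00179 with the block). In TFEB-wt Cre-neg the fold change was -0.43 ± 0.17 (adjusted p = 0.225, 0.0257 with the block), and in TFEB-TG Cre-neg -0.15 ± 0.19 (adjusted p = 0.776). Mertk, Gas6, Tgm2 and Stab1 were not called in any of the 4 fraction comparisons, with or without the block. Their fold changes ran from -0.29 (Mertk, mac-TFEB) to 0.41 (Gas6, mac-TFEB).

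The comparison of mac-TFEB with CX3CR1-Cre asks what TFEB overexpression does, between 2 lines whose make-up by Xist also differed. The cassette comparison, of TFEB-TG with TFEB-wt Cre-neg, asks how cells labelled Cre-neg differ between the lines. It does not isolate a silent cassette, because Tfeb was higher in TFEB-TG Cre-neg. Among CCR2neg cells the mean of Tfeb was 21.1 CPM there, against 6.65 CPM in TFEB-wt Cre-neg. The CCR2pos means were 38.8 and 6.06 CPM in the same order. TFEB-TG Cre-neg is therefore no reference with unchanged Tfeb, either for mac-TFEB or in the tests of differences. In CCR2neg cells 1 of 9 members passed between mac-TFEB and CX3CR1-Cre, Tgm2, which was higher (1.38% of all genes called). In CCR2pos cells 0 of 9 passed (0.0391%), and the lowest adjusted p of the 9 was 0.996. The median of the 9 fold changes was 0.18 in CCR2neg, beside 0.01 over all genes, and 0.02 in CCR2pos cells. For the cassette 0 of 9 passed in CCR2neg (0.406%) and 0 of 9 in CCR2pos cells (0.0313%). In mac-TFEB over its own Cre-neg group 0 of 9 passed in CCR2neg (0.156%) and 0 of 9 in CCR2pos cells (0.0156%). Between CX3CR1-Cre and TFEB-wt Cre-neg 2 of 9 passed in CCR2neg, Axl higher and Tgm2 lower (2.6%), and 0 of 9 in CCR2pos cells (0.00782%). The mac-TFEB comparison and the last one use the same CX3CR1-Cre libraries, so their values are set side by side for each gene.

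**Figure D4:**
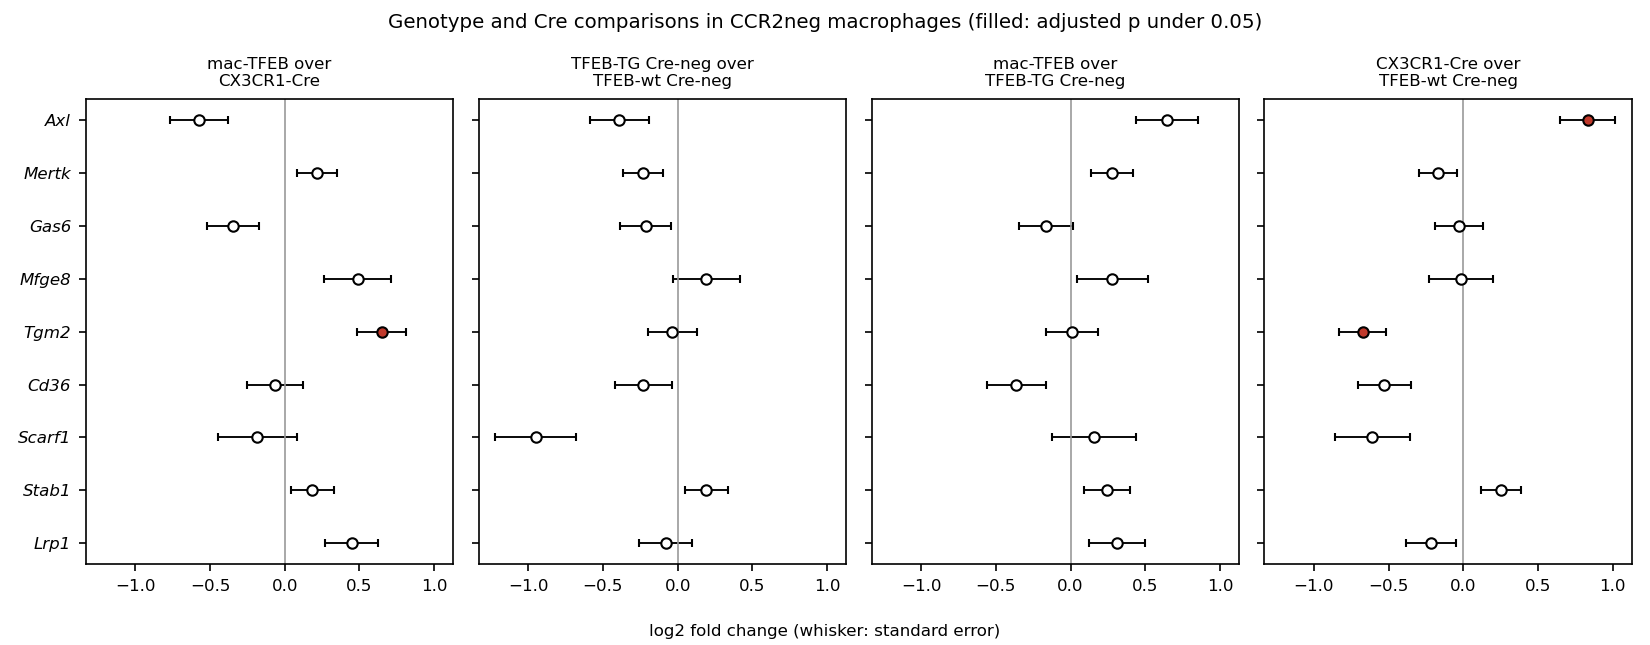
Log2 fold change of the 9 genes in CCR2neg cells for mac-TFEB over CX3CR1-Cre, TFEB-TG Cre-neg over TFEB-wt Cre-neg, mac-TFEB over TFEB-TG Cre-neg and CX3CR1-Cre over TFEB-wt Cre-neg; whiskers are standard errors and filled points have an adjusted p under 0.05. Tgm2 lies at 0.65, -0.04, 0.01 and -0.67 in these 4 panels, and Axl lies at -0.57, -0.39, 0.65 and 0.83.

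Tgm2, the transglutaminase that acts beside integrin β3 and Mfge8, was lowest in CX3CR1-Cre. In CCR2neg cells it was counted at 214, 163, 276 and 212 CPM in mac-TFEB, against 152, 157, 119, 117 and 144 CPM in CX3CR1-Cre. In the Cre-neg groups it was counted at 271, 191, 201 and 196 CPM in TFEB-TG Cre-neg and at 200.3, 228, 235, 158 and 279 CPM in TFEB-wt Cre-neg. All 5 CX3CR1-Cre libraries lay below all 13 other CCR2neg libraries, while the other 3 groups overlapped each other. Tgm2 rose by 0.65 ± 0.16 on the log2 scale in mac-TFEB over CX3CR1-Cre (adjusted p = 0.0341) and fell by 0.67 ± 0.16 in CX3CR1-Cre over TFEB-wt Cre-neg (adjusted p = 0.0115). Its fold change was 0.01 ± 0.17 in mac-TFEB over TFEB-TG Cre-neg (adjusted p = 0.998) and -0.04 ± 0.16 in TFEB-TG over TFEB-wt Cre-neg (adjusted p = 0.958). The difference between the mac-TFEB comparison and the cassette comparison was 0.69 ± 0.23, with an adjusted p of 0.999. In CCR2pos cells CX3CR1-Cre again had the lowest mean, with 202 ± 48.4 CPM in mac-TFEB, 156 ± 21.1 in CX3CR1-Cre, 236 ± 35.5 in TFEB-TG Cre-neg and 215 ± 21.4 in TFEB-wt Cre-neg. There the fold change was 0.37 ± 0.16 in mac-TFEB over CX3CR1-Cre (adjusted p = 1.00) and -0.46 ± 0.15 in CX3CR1-Cre over TFEB-wt Cre-neg (adjusted p = 0.617), although in the second of these the groups did not overlap.

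The Tgm2 call in mac-TFEB over CX3CR1-Cre was kept in 4 of 9 leave-outs. It was lost without mac-TFEB library 3 or 4 (adjusted p = 0.273 and 0.0994) and without CX3CR1-Cre library 3, 4 or 5 (0.122, 0.108 and 0.0585). Without the 3 libraries that stood apart its fold change was 0.59 (adjusted p = 0.1002), and in a fit to those 2 groups alone the adjusted p was 0.0822. The Tgm2 call in CX3CR1-Cre over TFEB-wt Cre-neg was lost without CX3CR1-Cre library 4 (adjusted p = 0.0512), without Cre-neg library 5 (0.0625) and without the libraries that stood apart (0.0800). Rprd1b, which shares exon bases with Tgm2 on the other strand, had a fold change of 0.08 ± 0.14 in mac-TFEB over CX3CR1-Cre and of 0.07 ± 0.14 in CX3CR1-Cre over TFEB-wt Cre-neg in CCR2neg cells, and Gm20412, which shares more, was not analysed here. The monocyte markers summed to 71.9 to 256 CPM in CCR2neg mac-TFEB, 54.8 to 198 CPM in CX3CR1-Cre and 77.9 to 1087 CPM in TFEB-wt Cre-neg, and their part in the Tgm2 and Axl results was not tested.

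Axl, the receptor kinase that inflammatory signals raise in macrophages, was highest among CCR2neg cells in CX3CR1-Cre. It was counted at 199, 165, 117 and 88.1 CPM in CCR2neg mac-TFEB, against 204, 202, 224, 213 and 215 CPM in CCR2neg CX3CR1-Cre. In the Cre-neg groups it was counted at 135, 84.0, 77.0 and 66.9 CPM in CCR2neg TFEB-TG and at 111, 111, 118, 113 and 142 CPM in CCR2neg TFEB-wt. The CX3CR1-Cre libraries lay close together and above every library of the other 3 groups. Axl rose by 0.83 ± 0.19 on the log2 scale in CX3CR1-Cre over TFEB-wt Cre-neg (adjusted p = 0.00920), a call kept in all 10 leave-outs and all 10 other settings tried. In mac-TFEB over CX3CR1-Cre its fold change was -0.57 ± 0.20 (adjusted p = 0.152), and without the first mac-TFEB library it was -0.78 (adjusted p = 0.0348). It was called in 4 of 10 other settings, with adjusted p of 0.00251 with voom quality weights, 0.00912 with a sex term, 0.0215 with a random replicate block and 0.0481 with the block by number. In mac-TFEB over TFEB-TG Cre-neg it was 0.65 ± 0.21 (adjusted p = 0.282, 0.00182 with the block), higher in 4 of 4 numbers, and without the first Cre-neg library 0.90 (adjusted p = 0.0491). In TFEB-TG over TFEB-wt Cre-neg it was -0.39 ± 0.20 (adjusted p = 0.404). In CCR2pos cells the 4 fold changes lay between -0.06 and 0.37 and none was called.

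Within TFEB-TG, the order of Axl among CCR2neg mac-TFEB libraries was that of Tfeb, at 335, 249.98, 98.1 and 67.4 CPM in libraries 1 to 4. CCR2neg TFEB-TG Cre-neg libraries had the same order in both genes, with Tfeb at 36.5, 18.6, 16.9 and 12.4 CPM. In CCR2pos mac-TFEB libraries Axl was counted at 238, 281, 153 and 155 CPM and Tfeb at 225, 279.8, 60.4 and 68.2 CPM, again in one order, and so they were in CCR2pos TFEB-TG Cre-neg, where Tfeb was at 51.0, 50.5, 34.6 and 19.1 CPM. The order was not particular to Axl, since Cd36 had that of Tfeb in both CCR2neg groups, though not in the CCR2pos groups. The TFEB-TG groups share the same numbers, and same-numbered libraries deviated together, so their matching orders are not separate observations. Whether any gene follows Tfeb was not tested. Numbers 1 and 2 of TFEB-TG had Xist under 10 CPM and numbers 3 and 4 at or over it. Sex, number and Tfeb level therefore cannot be told apart among these 4 numbers. In TFEB-wt, number 1 had Xist under 10 CPM and numbers 2 to 5 at or over it, so comparisons between the lines also differ in this.

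Of the other members, Mfge8 was counted at 219, 174, 246 and 159 CPM in CCR2neg mac-TFEB, against 117, 143, 167, 152 and 133 CPM in CCR2neg CX3CR1-Cre, with 3 of 4 mac-TFEB libraries above all CX3CR1-Cre libraries. Its fold change of 0.49 ± 0.22 was not called (adjusted p = 0.304). Lrp1, at 401, 307, 309 and 336 CPM in CCR2neg mac-TFEB and 234, 235, 303, 237 and 231 CPM in CCR2neg CX3CR1-Cre, had no overlap and a fold change of 0.45 ± 0.18 (adjusted p = 0.217). In CCR2pos cells the fold change of Lrp1 was 0.49 ± 0.18 and that of Cd36 -0.49 ± 0.19 (adjusted p of both = 1.00). Cd36 had 321 ± 43.8 CPM in CCR2pos mac-TFEB and 452 ± 41.8 CPM in CCR2pos CX3CR1-Cre (n = 4 and 5), without overlap.

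Cd36 in CCR2neg cells was counted at 731, 639, 535, 664 and 647 CPM in CX3CR1-Cre, against 853, 980.4, 991, 803 and 1011 CPM in TFEB-wt Cre-neg, with no overlap. Its fold change of -0.53 ± 0.18 had an adjusted p of 0.125, and of 0.00764 with the block. Scarf1 in CCR2neg cells was counted at 4.33, 8.17, 7.75 and 8.06 CPM in TFEB-TG Cre-neg, against 14.4, 9.83, 16.5, 9.78 and 18.05 CPM in TFEB-wt Cre-neg, also with no overlap. Its fold change of -0.95 ± 0.27 was the largest of the cassette comparison and was not called (adjusted p = 0.0879). It had an adjusted p of 0.0478 without the second TFEB-wt Cre-neg library and was called by DESeq2's Wald test (0.0265).

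Mertk, the main phosphatidylserine-sensing kinase of resident macrophages, had the narrowest spread of group means among the 9. Its group means ran from 163 CPM in CCR2pos TFEB-TG Cre-neg to 205 CPM in CCR2neg mac-TFEB, and in the 12 comparisons of 2 groups its fold changes lay between -0.29 and 0.28. Gas6, the ligand of Axl and Mertk, had group means of 66.1 CPM in CCR2neg mac-TFEB to 87.7 CPM in CCR2pos mac-TFEB. Its fold changes lay between -0.35 and 0.41. Stab1, an endocytic scavenger receptor of macrophages and sinusoidal endothelium, ran from 646 CPM in CCR2pos TFEB-wt Cre-neg to 909 CPM in CCR2neg mac-TFEB. Its fold changes lay between -0.25 and 0.29. Within numbers Stab1 was higher in mac-TFEB than in Cre-neg in 4 of 4 pairs of TFEB-TG in each fraction. In TFEB-wt, which lacks the cassette, it was higher in CX3CR1-Cre than in Cre-neg in 4 of 5 pairs in each fraction. None of these 3 genes was called in a comparison, and their standard errors of 0.13 to 0.18 set the size of change that could be seen.

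No member passed a test of the difference between comparisons. The test of whether the mac-TFEB difference exceeded the cassette difference called 0 of 9 members in CCR2neg (0.0%) and 0 of 9 in CCR2pos cells (0.0%), and so did the test of whether the mac-TFEB difference differed between fractions (0.0%). These tests called 0 of 12795 genes by edgeR, with 496, 145 and 505 genes at an unadjusted p under 0.05, while DESeq2's Wald test called 2, 0 and 0 genes and the fit with the block 32, 0 and 0.

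Of 126 further genes on 6 lists of the pathway, 117 were measured. Tyro3, the remaining kinase of the Axl and Mertk family, Havcr1, Adgrb1 and Megf10 were among those not analysed here. In mac-TFEB over CX3CR1-Cre in CCR2neg cells 8 of the 117 passed, 5 higher and 3 lower, or 6.84%, beside 1.38% of all genes. Among 28 other phosphatidylserine receptors and bridges 3 were higher and 1 lower. Cd300lf, an inhibitory receptor for phosphatidylserine and sphingolipids, had 123 ± 38.1 CPM in mac-TFEB and 49.5 ± 13.2 CPM in CX3CR1-Cre (n = 4 and 5), a rise of 1.31 ± 0.21 on the log2 scale (adjusted p = 0.000477). Cd93, a C-type lectin-like receptor of phagocytes, rose by 0.84 ± 0.14 (adjusted p = 0.000477) and Cd300a, another inhibitory phosphatidylserine receptor, by 0.51 ± 0.11 (adjusted p = 0.00989). C1qa, a chain of the bridge C1q, fell by 0.76 ± 0.20 (adjusted p = 0.0424) and was named after its value was seen. Of 10 genes of receptor shedding and signalling downstream of Axl and Mertk, Grb2, an adaptor of receptor kinases, rose by 0.52 ± 0.13 (adjusted p = 0.0388). Socs3, which dampens cytokine receptors, fell by 0.83 ± 0.18 (adjusted p = 0.00844). Atg7, which conjugates LC3, rose by 0.45 ± 0.12 (adjusted p = 0.0430) among 23 genes of phagosome maturation, and Slc16a1, a lactate carrier, fell by 0.58 ± 0.14 (adjusted p = 0.0314) among 20 of cargo handling. None of 22 engulfment genes and none of 14 find-me and do-not-eat-me genes passed. In CCR2pos cells, and for the cassette in both fractions, 0 of the 117 passed.

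In CX3CR1-Cre over TFEB-wt Cre-neg in CCR2neg cells 14 of the 117 passed, 3 higher and 11 lower, or 12%, beside 2.6% of all genes, and 7 of the 28 other receptors and bridges were lower. Among them Olr1, a receptor for oxidised lipoprotein, had 5.61 ± 1.94 CPM in CX3CR1-Cre and 24.7 ± 14.0 CPM in TFEB-wt Cre-neg (n = 5 each) and fell by 2.14 ± 0.38 on the log2 scale (adjusted p = 0.00151). Itgb2, the β2 integrin chain of complement receptors, fell by 0.69 ± 0.14 (adjusted p = 0.00358). Cd300lf, also named after its value was seen, fell by 0.89 ± 0.20 (adjusted p = 0.0111) and was, like Tgm2, higher in mac-TFEB than in the same CX3CR1-Cre libraries. The sterol-sensing receptor Nr1h3 fell by 1.30 ± 0.22 (adjusted p = 0.000961) and the lipoxygenase Alox15 fell by 2.86 ± 0.62 (adjusted p = 0.00770). Cx3cr1, the receptor for a find-me signal and the gene whose promoter drives Cre here, rose by 1.02 ± 0.19 (adjusted p = 0.00186), and the inhibitory lectin Siglece by 0.89 ± 0.17 (adjusted p = 0.00285).

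Between fractions, Gpr132, a receptor for lysophospholipids released by dying cells, was higher in CCR2pos cells in all 4 comparisons. It rose by 0.72 ± 0.15 in mac-TFEB, 0.65 ± 0.14 in CX3CR1-Cre, 1.47 ± 0.16 in TFEB-TG Cre-neg and 1.11 ± 0.14 in TFEB-wt Cre-neg (adjusted p of 2.32e-07 to 0.0155). Alox15 fell by 3.36 ± 0.71 in TFEB-TG Cre-neg (adjusted p = 0.00518) and fell by 3.78 ± 0.65 in TFEB-wt Cre-neg (adjusted p = 0.000654). Il10, a cytokine released after efferocytosis, rose by 1.20 ± 0.33 in TFEB-wt Cre-neg (adjusted p = 0.0408). Of the 117 genes 2 passed in mac-TFEB (1.71%, beside 0.539% of all genes), 1 in CX3CR1-Cre (0.855%, beside 0.797%), 5 in TFEB-TG Cre-neg (4.27%, beside 3.26%) and 4 in TFEB-wt Cre-neg (3.42%, beside 2.35%).

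The pattern of each member over the 36 libraries was compared with that of 11895 other genes by Pearson's r of log2(CPM + 1), as a description, since libraries of a group are alike and all 36 share the 8 groups. Closest to Axl were the MHC class II genes H2-Eb1 (0.877) and H2-Ab1 (0.868), followed by Tmem119 (0.861). Closest to Mfge8 were Gpr137b (0.894), Apbb2 (0.860) and Tnfsf12 (0.849), to Cd36 Pls3 (0.856), Cav2 (0.805) and Nt5e (0.797), and to Scarf1 Tfip11, Cwc25 and the immediate early gene Nr4a1 (0.837, 0.836 and 0.830). Tgm2 lay closest to Cd274 (0.792), Olr1 (0.756) and Sgk1 (0.754), and Lrp1 to Flna (0.810), Dync1h1 (0.758) and Myof (0.743). Stab1 lay closest to Enpp4 (0.810), Cers4 (0.733) and Ctc1 (0.729), and Gas6 to Igfbp4 (0.777), Arl4d (0.717) and Hexim1 (0.714). Mertk had the weakest partners, Aplp2 (0.713), a gene whose symbol the table holds as a date (0.686) and Plekha1 (0.672).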

How the data were processed

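PolyA RNA of sorted macrophages was made into cDNA with the SMARTer Ultra Low kit and read as single 50-base reads without strand, per the labels' protocols. Tools listed in the submitters' processing notes are HTSeq, TopHat2 2.0.10, TopHat, Bowtie2, edgeR and DESeq, with GRCm38 as the build. The authors deposited 1 table of raw read counts per gene. The filter that left its 12795 genes is not stated in those notes or labels. From the deposited counts, CPM, FPKM (per kilobase of merged exons, GENCODE vM21) and log2 values were derived here.

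All main tests used the quasi-likelihood F-test of edgeR (version 4.0.16 in R 4.3.3) after TMM scaling, in 1 fit of 8 group means over 36 libraries, with Benjamini-Hochberg adjustment. The expression filter (minimum count 10) removed no gene. Standard errors were taken as the absolute log2 fold change divided by the root of F. The scripts were tested on simulated data first. The common dispersion was 0.0943, so the spread between libraries and not counting error sets the precision.

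The members and lists were chosen with earlier results of these data known. All 9 members are named, beside Tfeb, Ccr2 and Cx3cr1, the 3 genes most like each member, and of each pathway list up to 3 called genes in a TFEB comparison and 2 in others. Likeness leaves out unnamed gene models and pseudogenes.

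The numbers in the labels occur in 4 libraries each within a genotype. Same-numbered libraries that differed in fraction or in Cre status alone deviated together from their group means, with correlations of 0.221 to 0.589 (TFEB-wt) and 0.485 to 0.707 (TFEB-TG), against -0.60 to 0.467 (mean -0.13) for different numbers. Same-numbered libraries that differed in both had correlations of 0.0558 to 0.515 (TFEB-wt) and 0.301 to 0.695 (TFEB-TG). The number within genotype is therefore the replicate block of comparisons within a genotype. Alternatives changed the scaling (size factors of DESeq2), the filter (none, or 1 CPM in at least 9 libraries, which kept 12120 genes) or the test: the Wald test of DESeq2 (version 1.42.0), voom in limma (version 3.58.1) with quality weights or with a random replicate effect, the block, a sex term from Xist at 10 CPM, a fit to the compared libraries alone and leaving out each library. A fit without 3 libraries that stood apart was added after seeing the data. Promoter sequences are RefSeq's.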

Additional observations from a re-analysis of the deposited data

Results flagged for a closer look

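Of 72 sets made of the libraries of 1 group for 1 gene, 5 held a library far from the others, and chance alone flags about 1 in 20 such sets. Axl in CCR2neg TFEB-wt Cre-neg was at 142 CPM in the fifth library and at 110.5 to 118 CPM in the other 4. Tgm2 in CCR2neg TFEB-TG Cre-neg was at 271 CPM in the first library and at 191 to 201 CPM in the other 3. Scarf1 in the same first library was at 4.33 CPM, below the 7.75 to 8.17 CPM of the other 3. Lrp1 in CCR2neg CX3CR1-Cre was at 303 CPM in the third library and at 231 to 237 CPM in the other 4. Lrp1 in CCR2pos TFEB-wt Cre-neg was also at 303 CPM in the third library and at 179 to 212 CPM in the other 4. The first CCR2neg TFEB-TG Cre-neg library and the third CCR2neg CX3CR1-Cre library are among the 3 with quality weights under 0.4.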

How the results depend on the processing

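Counts are of the 9 members called. In CCR2neg mac-TFEB over CX3CR1-Cre the count was 1, and it was 3 with voom quality weights, 2 with a random replicate block, with the replicate block by number or with a sex term, 0 in a fit to the compared libraries alone, 0 without the libraries that stood apart, and 0 to 2 with 1 library left out. In the CCR2neg cassette comparison it was 0, 1 with DESeq2's Wald test and 0 to 1 with 1 library left out. For the fractions in mac-TFEB it was 2, 5 with quality weights, the random block or the replicate block, 1 in the compared libraries alone and 0 to 3 in leave-outs. For the fractions in CX3CR1-Cre it was 1, 2 with the stricter filter, quality weights or the sex term, 3 with DESeq2 or the compared libraries alone, 4 with either block and 0 to 1 in leave-outs. For the fractions in TFEB-TG Cre-neg it was 4, 0 in the compared libraries alone and 4 in every leave-out. For the fractions in TFEB-wt Cre-neg it was 2, 5 with the random block, 4 with the replicate block and 1 to 2 in leave-outs. In CCR2neg mac-TFEB over TFEB-TG Cre-neg it was 0, 1 with either block and 0 to 1 in leave-outs. In CCR2neg CX3CR1-Cre over TFEB-wt Cre-neg it was 2, 3 with either block, the sex term or the compared libraries alone, where Cd36 was gained, 1 without the libraries that stood apart and 1 to 2 in leave-outs. The other 7 comparisons had 0 under every setting tried. Of 2754 alternative values of single members, 2679 kept their side of the threshold, 46 gained a call, 29 lost one and 0 called values changed sign. The numbers pair no libraries between genotypes, so the block by number there carries no shared source. The causes of these changes were not tested. Over all genes, 176 were called in CCR2neg mac-TFEB over CX3CR1-Cre, 67 in the compared libraries alone and 1351 with quality weights. The block raised the calls between fractions to 481 in mac-TFEB, against 69, and to 552 in CX3CR1-Cre, against 102. In TFEB-TG Cre-neg it raised them to 1228, against 417, and in TFEB-wt Cre-neg to 808, against 301. With 4 or 5 libraries a group, a member that missed the threshold is not shown to be unchanged.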
